A study of Mus musculus with 2 samples.

Results

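Colon-type genes outside the HOX clusters, 9 in number, were followed in the intestine of 2 newborn mice among 43346 Ensembl genes with a row in the tables. They are Best2, Aqp8, Fa2h, B3gnt6, Mettl7b, Prr15l, Foxd2, Foxd2os and Krtap26-1, matched by symbol to their gene identifiers. The genes were selected on values measured in these same libraries, among them the level and the ratio between the pups, so both are given here as descriptions. The animals were B6NCrl pups of age 0 days from 1 litter, with no treatment named in the labels, sex not collected and 1 whole-tissue library each, called pup 1 and pup 2. Total RNA above 200 nt was sequenced from 10 ng. Both libraries form 1 group, so no contrast between conditions exists, and with 2 values the smallest p of an exact permutation test by sign is 0.5. The labels name the organ and not the stretches of gut in each sample. In whole tissue fewer cells of a type and less RNA per cell cannot be told apart.

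The colon absorbs water and salt and carries a thick mucus layer, and its surface and goblet cells express channels, exchangers and glycan enzymes in proportions unlike those of the small intestine. Best2 is a calcium-activated anion channel of colonic goblet cells that lets bicarbonate through. Aqp8 is a channel for water and hydrogen peroxide. B3gnt6 makes the core 3 O-glycan of colonic mucins, and Fa2h adds a hydroxyl group to the fatty acids of ceramides. Position along the gut is marked by HOX genes, whose later paralogue groups are expressed in the wall of the distal part.

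Of the members, 4 of 9 had a start site in the RefSeq promoter table (GRCm38.p6): Foxd2, Krtap26-1, Aqp8 and Mettl7b. The 250 bases before each start are shown because the first 2 genes differed over 2-fold between the pups and the other two did not. Capitals mark matches on either strand to TTTATNG, the letters common to caudal and posterior HOX sites, and to TATAAA. A match to TTTATNG on the reverse strand can overlap TATAAA.
Foxd2 (chr4:114908899-114909148, minus strand): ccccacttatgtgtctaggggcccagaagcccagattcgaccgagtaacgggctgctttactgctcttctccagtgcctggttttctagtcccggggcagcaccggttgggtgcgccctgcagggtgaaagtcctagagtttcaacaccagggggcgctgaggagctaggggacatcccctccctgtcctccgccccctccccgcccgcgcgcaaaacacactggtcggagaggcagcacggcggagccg
Krtap26-1 (chr16:88647797-88648046, minus strand): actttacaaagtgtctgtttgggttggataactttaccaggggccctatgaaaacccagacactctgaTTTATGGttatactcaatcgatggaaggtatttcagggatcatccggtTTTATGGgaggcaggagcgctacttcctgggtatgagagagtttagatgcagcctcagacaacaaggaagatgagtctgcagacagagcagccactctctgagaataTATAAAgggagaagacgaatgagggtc
Aqp8 (chr7:123462044-123462293, plus strand): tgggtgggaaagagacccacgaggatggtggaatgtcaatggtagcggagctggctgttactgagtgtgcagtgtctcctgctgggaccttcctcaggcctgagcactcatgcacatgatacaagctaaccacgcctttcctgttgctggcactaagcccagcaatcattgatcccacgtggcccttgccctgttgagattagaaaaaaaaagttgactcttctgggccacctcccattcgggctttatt
Mettl7b (chr10:128960989-128961238, minus strand): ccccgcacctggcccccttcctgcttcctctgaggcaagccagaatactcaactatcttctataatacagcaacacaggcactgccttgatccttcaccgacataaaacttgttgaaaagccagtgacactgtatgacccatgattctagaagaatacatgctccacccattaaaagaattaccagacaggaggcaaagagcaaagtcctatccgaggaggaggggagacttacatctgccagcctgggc

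The Krtap26-1 window held TTTATNG 2 times, each as TTTATGG, at 182 to 176 and 134 to 128 bases before the start, and TATAAA at 27 to 22 bases before it. The windows of Foxd2, Aqp8 and Mettl7b held neither set of letters. Of 32817 windows of the same length, 9.81% held TTTATNG and 12.4% held TATAAA. The letters CAAAG, the core of TCF sites, stood in the windows of Mettl7b (2 matches) and Krtap26-1 (1 match) and in 48.6% of all windows. The G and C share was 64.4% for Foxd2, 52.4% for Aqp8, 49.2% for Mettl7b and 45.6% for Krtap26-1, against a median of 52.4%. These matches describe the letters alone, and binding was not measured.

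Levels are in TPM, the deposited transcript abundance per length, and counts are expected counts, the deposited estimates of reads per gene. The members spanned a wide range, with 3 of 9 at 1 TPM or more in both pups. Mettl7b, Prr15l and Aqp8 were abundant, while the means of the other six lay near or under 1 TPM. In pup 1 alone 6 of the 9 reached 1 TPM, and in pup 2 alone 3 did. All 9 had whole-number counts in both pups.

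**Figure D1:**
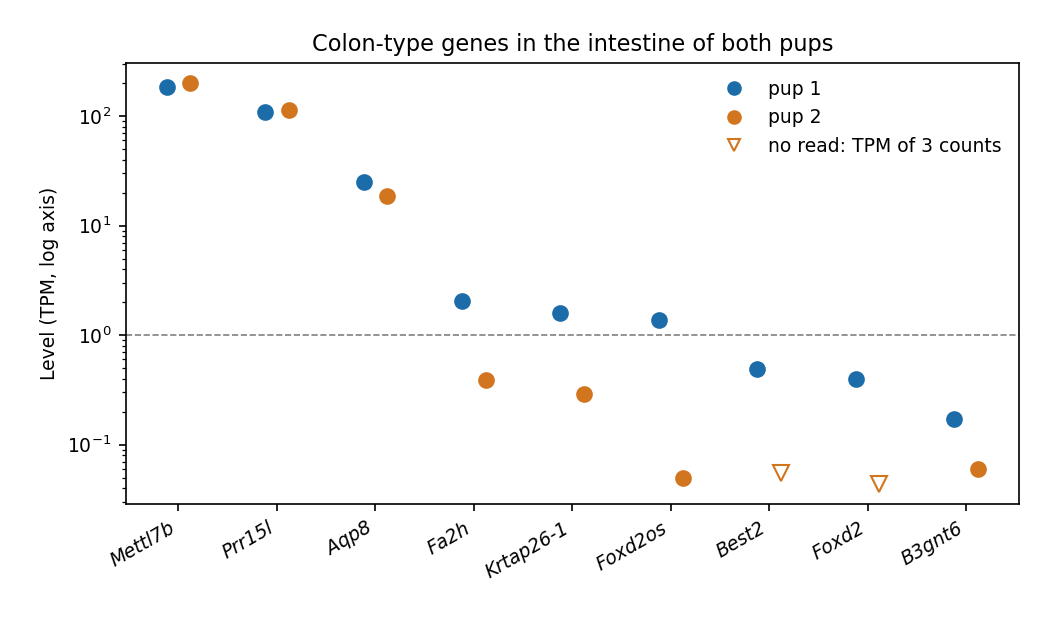
Level of each member (TPM, log axis) in pup 1 (blue) and pup 2 (orange), 1 point per library, ordered by mean. Open triangles stand for 0 reads and are drawn at the TPM of 3 counts, and the dashed line is 1 TPM. Mettl7b, Prr15l and Aqp8 sit between 18.67 and 200.86 TPM in both pups, and each of the other six is lower in pup 2.

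Among the channels, Aqp8 and Best2 stood far apart in level. Aqp8 (ENSMUSG00000030762.7, chromosome 7, 123462291 to 123468004 on GRCm38, the assembly called mm10 in the files) had 24.83 TPM in pup 1 and 18.67 TPM in pup 2, from counts of 1140 and 647. Its mean was 21.8 ± 4.36 TPM (SD, n = 2), above 78.8% of protein-coding genes. Best2 (ENSMUSG00000052819.5, chromosome 8, 85007202 to 85014531) had 0.49 TPM in pup 1 from 35 reads and no read in pup 2. A count of 0 allows up to 3 counts, which is 0.0547 TPM for Best2 in pup 2. Best2 was thus seen in 1 library only, and a level below that limit in pup 2 would not have been detectable.

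The enzymes of lipids and sugars were low. Fa2h (ENSMUSG00000033579.12, chromosome 8, 111345135 to 111393824) had 2.07 TPM in pup 1 and 0.39 TPM in pup 2, from counts of 178 and 26. B3gnt6 (ENSMUSG00000074004.2, chromosome 7, 98192417 to 98199481) had the lowest mean of the members, 0.17 and 0.06 TPM from 14 and 4 reads. Mettl7b, which transfers methyl groups to thiols, was the most abundant of them. Mettl7b (ENSMUSG00000025347.3, chromosome 10, 128958274 to 128960988) had 186.45 TPM in pup 1 and 200.86 TPM in pup 2, a mean of 194 ± 10.2 TPM (SD, n = 2) above 96.8% of protein-coding genes. It overlaps Itga7 on the other strand, which had counts of 212 and 202 against 7563 and 6243 for Mettl7b. No source used here states how counting used strand, so reads of this antisense pair cannot be told apart where they overlap.

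Prr15l, which encodes a proline-rich protein, had 110.37 TPM in pup 1 and 112.92 TPM in pup 2, from counts of 4650 and 3690 (ENSMUSG00000047040.9, chromosome 11, 96928104 to 96937830). Its mean was 112 ± 1.80 TPM (SD, n = 2), and the pups overlapped within a few percent.

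Foxd2, a forkhead transcription factor of mesenchyme, and the non-coding Foxd2os lie head to head on chromosome 4, with 383 bases between their ends. Foxd2 (ENSMUSG00000055210.4, minus strand, 114906282 to 114908873) had 0.40 TPM from 36 reads in pup 1 and no read in pup 2, where 3 counts would be 0.0437 TPM. Foxd2os (ENSMUSG00000085399.3, plus strand, 114909257 to 114921967) had 1.36 TPM from 57 reads in pup 1 and 0.05 TPM from 2 reads in pup 2. Both genes of the pair thus had nearly all of their reads in pup 1. Their annotated bodies do not overlap, and the Foxd2 window shown above lies within the stretch between them.

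Krtap26-1 belongs by name to the keratin-associated proteins of hair (ENSMUSG00000071471.2, chromosome 16, 88646824 to 88647796). It had 1.59 TPM from 50 reads in pup 1 and 0.29 TPM from 7 reads in pup 2. Of 57 genes named Krtap in the tables, 51 had no read in either pup. Krtap3-1 was the other family member with more than a few reads, at 2.70 and 3.38 TPM from counts of 49 and 47. Of 12 epidermis and hair markers, 8 had a summed count of 10 or more, and none of these passed the 2-fold rule described next. Their summed level was 30.8 TPM in pup 1 and 33.9 TPM in pup 2, led by Sbsn (9.13 ± 0.806 TPM), Krt14 (7.70 ± 0.615 TPM) and Ly6d (5.80 ± 2.95 TPM), and Dsg3 and Flg2 had no read.

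Between-pup ratios were taken from counts scaled to library size, and a gene was called over 2-fold apart when it had at least 10 counts over both pups and the exact 95% interval of its ratio excluded everything between 0.5 and 2. Such intervals carry the counting error alone and, with 1 library per pup, hold no spread between animals or between libraries. PCR copies were not marked by molecular identifiers, so copies of 1 molecule cannot be told apart from separate reads. By this rule 5 of the 9 members were called higher in pup 1, namely Best2, Foxd2, Foxd2os, Fa2h and Krtap26-1, and none was called higher in pup 2. Over 19088 genes, 0.367% were called higher in pup 1 and 0.43% higher in pup 2, 0.796% in all. The members were proposed with these ratios known, so their share against that background is no test. The members' median log2 ratio was 2.21, and that of all genes was 0.0032, both with a prior count of 2, and the members' median is the same with Best2 and Foxd2 at their lower bounds.

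Foxd2os was 22.9-fold higher in pup 1 (95% interval 6.04 to 193). Against a floor of 3 counts in pup 2, Best2 was at least 9.35-fold higher in pup 1 and Foxd2 at least 9.62-fold higher, with exact lower limits of 7.21 and 7.43. Krtap26-1 was 5.73-fold higher in pup 1 (2.58 to 15.0) and Fa2h 5.49-fold higher (3.62 to 8.63). B3gnt6 pointed the same way at 2.81, but its interval of 0.881 to 11.7 held 1, so with 18 reads in all no difference was detectable.

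Among the abundant members the ratios were near 1. Aqp8 stood at 1.41 (1.28 to 1.56), whose interval excluded both 1 and 2. Prr15l stood at 1.01 (0.967 to 1.06) and Mettl7b at 0.971 (0.939 to 1.0045), and both intervals held 1. The wide and narrow intervals follow the reads behind them, from 18 for B3gnt6 to 13806 for Mettl7b.

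**Figure D2:**
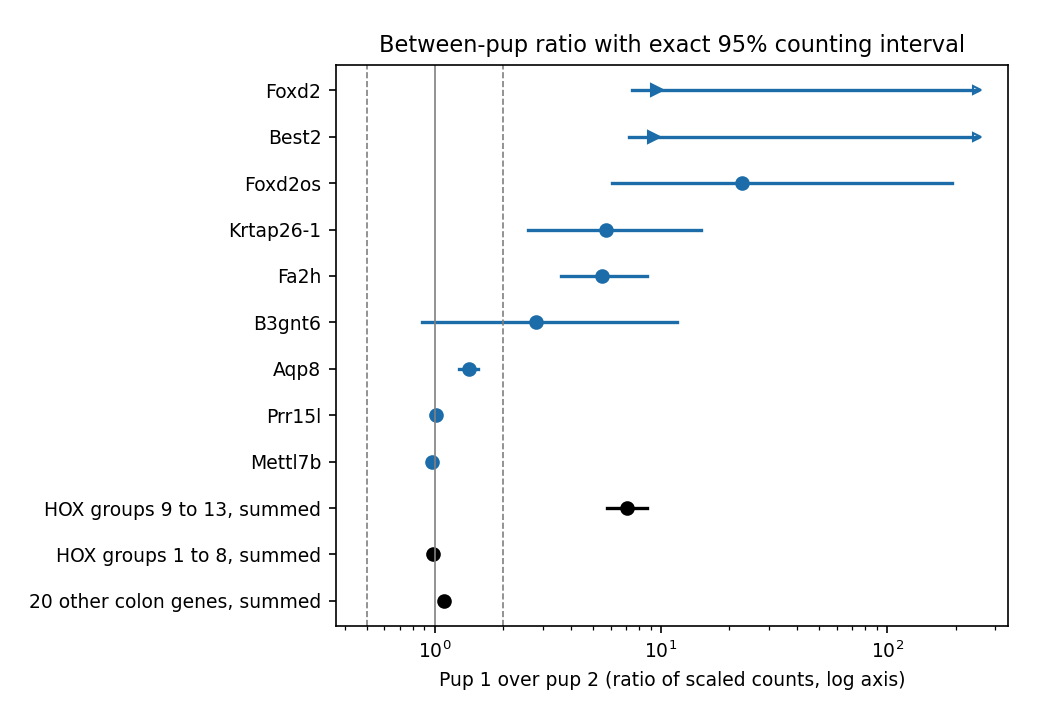
Ratio of pup 1 over pup 2 (log axis) with its exact 95% counting interval for the 9 members (blue) and for 3 gene sums (black), with 1 as a solid line and 2 and 0.5 as dashed lines. Filled triangles are lower bounds against 3 counts, where pup 2 had 0 reads and the interval has no upper end. The 5 called members lie wholly above 2, near or above the HOX groups 9 to 13 at 7.07, while Mettl7b and Prr15l sit at 1.

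HOX genes of groups 9 to 13 were likewise higher in pup 1. Their summed level was 14.5 TPM in pup 1 and 2.41 TPM in pup 2, a ratio of 7.07 (95% interval 5.80 to 8.69), whereas groups 1 to 8 stood at 0.980 (0.939 to 1.02), with none of 21 called and Hoxb5 (12.3 ± 0.594 TPM), Hoxa5 (12.1 ± 0.262 TPM) and Hoxb2 (7.14 ± 0.566 TPM) highest. Of the 16 posterior genes 9 reached a summed count of 10, and 6 of these were called higher in pup 1. Hoxa10 had 6.23 and 0.14 TPM, and Hoxa11 and Hoxd11 had 0.90 and 0.51 TPM in pup 1 and no read in pup 2. Within the posterior set the ratio was 0.774 for Hoxc9, 2.60 for Hoxd9, 4.13 for Hoxb9, 6.59 for Hoxa9 and 50.4 for Hoxa10. The group 13 genes Hoxa13, Hoxb13, Hoxc13 and Hoxd13 had at most 2 reads in either pup.

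Each member's count was set against the posterior HOX count within each pup, which needs no library scaling. A value of 1 means that the member differed between the pups by the same factor as the HOX sum. For 3 of 9 members the exact 95% interval lay below 1: Aqp8 at 0.200 (0.159 to 0.2497), Prr15l at 0.143 (0.116 to 0.175) and Mettl7b at 0.137 (0.111 to 0.168). For Fa2h (0.777, interval 0.486 to 1.28), Krtap26-1 (0.810, interval 0.354 to 2.17), B3gnt6 (0.397, interval 0.122 to 1.69) and Foxd2os (3.23, interval 0.833 to 27.7) it spanned 1. For Best2 and Foxd2, with no read in pup 2, the lower limits were 1.00 and 1.03. All 9 values share the same HOX counts. Against HOX groups 10 to 13 alone, whose ratio was 34.1 (20.2 to 62.8), 6 members lay below 1, Fa2h, Krtap26-1 and B3gnt6 in addition. Against the summed counts of 20 other colon epithelium genes, described below, 6 members lay above 1, Mettl7b and Prr15l below it and B3gnt6 spanned it. Aqp8 thus changed sides, to 1.28 (1.16 to 1.42). Most counts in that sum of 22567 and 16426 came from abundant genes. Slc26a2 (5133 and 4659) and Slc26a3 (4787 and 4415) gave the most, while Car1 gave 235 and 0. What part distal tissue had in each member's ratio was not tested.

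Set side by side, Mettl7b and Prr15l were abundant in both pups with ratios near 1 while the posterior HOX sum differed 7.07-fold, and the 6 scarce members had their lower value in pup 2, 5 of them past the 2-fold rule. Markers known from the colon were in part near 0. Among the 20 other colon epithelium genes, Fxyd4 had counts of 0 and 1, and Ly6g6c and Retnlb 3 and 2 each.

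Of those 20 genes, 17 reached a summed count of 10, and 3 were called higher in pup 1 and none higher in pup 2. Car1, a carbonic anhydrase of colon epithelium and of red cells, had 6.19 TPM from 235 reads in pup 1 and no read in pup 2. Against a floor of 3 counts in pup 2 it was 62.8-fold higher in pup 1, with an exact lower limit of 50.7. Cyp2c55, a cytochrome P450, had 10.33 and 2.51 TPM, a ratio of 4.31 (3.57 to 5.23). Hsd11b2, which inactivates corticosterone in aldosterone target cells, had 3.27 and 0.89 TPM, a ratio of 3.82 (2.74 to 5.44). The most abundant of the list were Zg16, a goblet cell lectin (162 ± 29.4 TPM, ratio 1.35, 1.28 to 1.43), Mptx1, a pentraxin (79.2 ± 30.7 TPM, ratio 1.84, 1.71 to 1.98), and Slc26a3, the chloride and bicarbonate exchanger (54.7 ± 7.71 TPM, ratio 0.869, 0.834 to 0.906). The list had a median log2 ratio of 0.37 and its summed counts a ratio of 1.10 (1.08 to 1.12). All 3 called genes were scarcer than these 3.

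**Figure D3:**
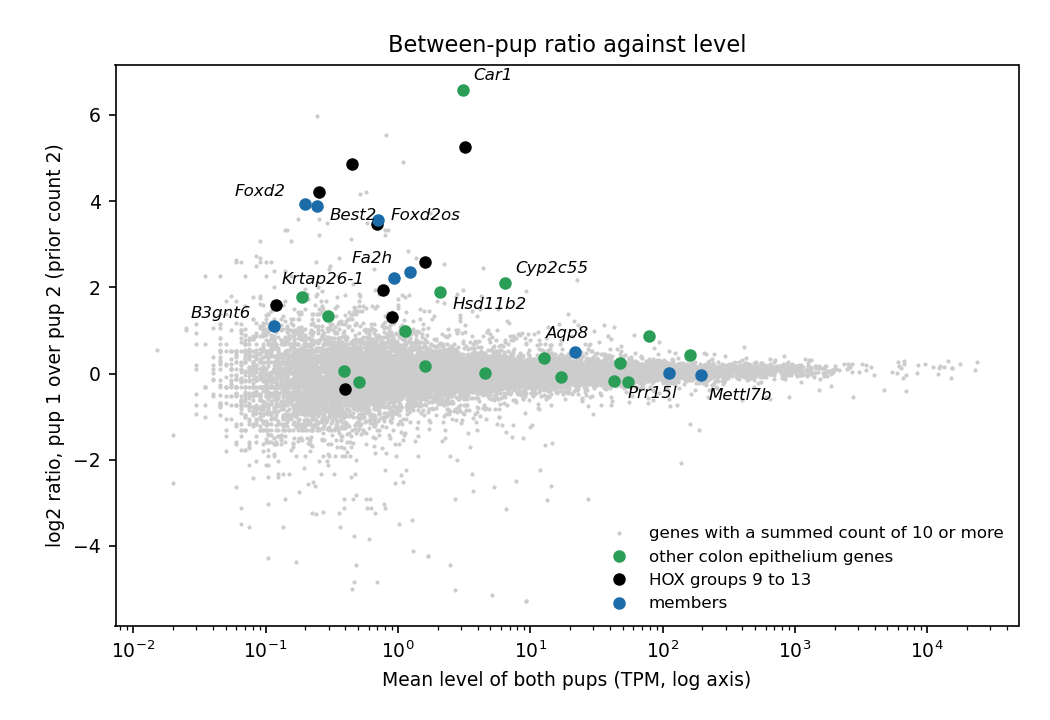
Log2 ratio of pup 1 over pup 2 (prior count of 2) against mean TPM (log axis) for the 19088 genes with a summed count of 10 or more (grey), with the members (blue), other colon epithelium genes (green) and HOX groups 9 to 13 (black). The 5 called members lie above the grey cloud among HOX genes at low levels, and Mettl7b, Prr15l and Aqp8 lie inside it or at its upper edge.

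None of the companion genes of the members was called over 2-fold apart. Over all 19088 genes 0.796% were called, so having none called in lists of this size is near that share. For Best2, none of the 9 anion transport genes with a summed count of 10 was called. This list was led by Slc26a6 (68.5 ± 16.3 TPM), Slc26a3, which is also on the colon list, and Slc12a2 (14.6 ± 0.396 TPM). Best1 had 0.49 and 0.71 TPM, so in pup 1 it stood at the level of Best2, and Best3 had no read. For Aqp8, none of 6 other aquaporins was called, with Aqp11 at 112 ± 7.09 TPM, Aqp1 at 15.8 ± 0.764 TPM and Aqp7 at 9.42 ± 2.03 TPM. Aqp11 thus exceeded Aqp8 in both pups, by 106.92 to 24.83 TPM in pup 1 and 116.95 to 18.67 TPM in pup 2.

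For B3gnt6, none of 17 O-glycan enzymes was called, and 15 of 18 had no value under 1 TPM. Galnt1 (63.6 ± 2.53 TPM) and Galnt2 (37.1 ± 2.64 TPM), which start such glycans, and C1galt1c1, the chaperone of the core 1 enzyme (52.4 ± 4.02 TPM), led the list. C1galt1, which makes core 1, had 4.11 and 4.16 TPM, against 0.17 and 0.06 TPM for B3gnt6, which makes core 3. For Fa2h, none of 15 sphingolipid enzymes was called. Degs2 (214 ± 5.71 TPM), Sptlc2 (153 ± 7.31 TPM) and Cers2 (91.8 ± 6.36 TPM) led them, and Ugt8a and Gal3st1, which build sulfated galactosylceramide, had 0.455 ± 0.134 and 24.5 ± 0.156 TPM. Myelin genes, listed because Fa2h is known from myelin, summed to 12.4 and 14.2 TPM with none of 4 called. Mbp was the highest of them (10.4 ± 0.721 TPM), and Mog had no read.

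For Foxd2, none of 7 forkhead genes was called. Foxf1, a factor of gut mesenchyme, stood at 40.1 ± 0.177 TPM, Foxa3, a factor of endoderm, at 9.77 ± 0.318 TPM and Foxf2 at 7.995 ± 0.714 TPM. Of the Foxd family itself, Foxd3 had 0.34 and 0.28 TPM, Foxd1 1 read in each pup and Foxd4 none. Besides Foxd2, Foxd3 was the one Foxd gene with enough reads to be called, and it was not. Of the relatives of Mettl7b and Prr15l, Prr15 stood at 42.3 ± 2.87 TPM, Mettl7a1 at 4.73 ± 0.587 TPM and Mettl7a3 at 0.0500 ± 0.0141 TPM, with neither of the 2 that could be called over 2-fold apart.

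Markers of other gut stretches and cell types were also read between the pups. The share called over all genes was 0.796%, so lists with none called lie near it. None of 10 upper small intestine genes was called, led by Apoa4, Fabp1 and Slc40a1 (453 ± 45.0 TPM). Of 6 ileum genes 1 was called higher in pup 1, the bile acid importer Slc10a2 with 1.31 and 0.31 TPM, while Slc51b (285 ± 32.1 TPM), Slc51a (250.2 ± 29.3 TPM) and Nts (123 ± 0.629 TPM) were not called. None of 8 goblet cell genes was called, with Tff3 at 1706 ± 92.9 TPM, Spink4 at 413 ± 108 TPM and Agr2 at 378 ± 36.4 TPM, and their summed counts had a ratio of 1.05 (1.04 to 1.06). In the stomach list 5 of 9 genes were called higher in pup 2, led by Gkn2 (6.11 and 48.28 TPM), Barx1 (0.24 and 1.65 TPM) and Gkn1 (3.85 and 24.64 TPM). Its summed level was 190 TPM in pup 1 and 533 TPM in pup 2, with Tff1 (137 ± 122 TPM), Tff2 (128 ± 49.0 TPM) and Gkn3 (41.0 ± 15.7 TPM) highest and Atp4b at 0. Atp4a, a subunit of the stomach proton pump, pointed to pup 1 without passing the rule, with 34 and 10 reads and a ratio of 2.73 (1.32 to 6.19). Liver genes, relevant to Aqp8 and Mettl7b, had none of 6 called and summed to 771 and 870 TPM, led by Afp, Ttr and Fgb, with Alb, the main plasma protein gene, at 0.825 ± 0.0495 TPM. Exocrine pancreas genes had none of 6 called and summed to 203 and 286 TPM, led by Clps, Ctrb1 and Cela2a, and urothelium genes had none of 2 called, with Upk3a (1.63 ± 0.113 TPM), Upk1a (1.13 ± 0.325 TPM) and Upk2 (0.0450 ± 0.00707 TPM). The part that stomach or other neighbouring tissue had in the members' ratios was not tested.

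**Figure D4:**
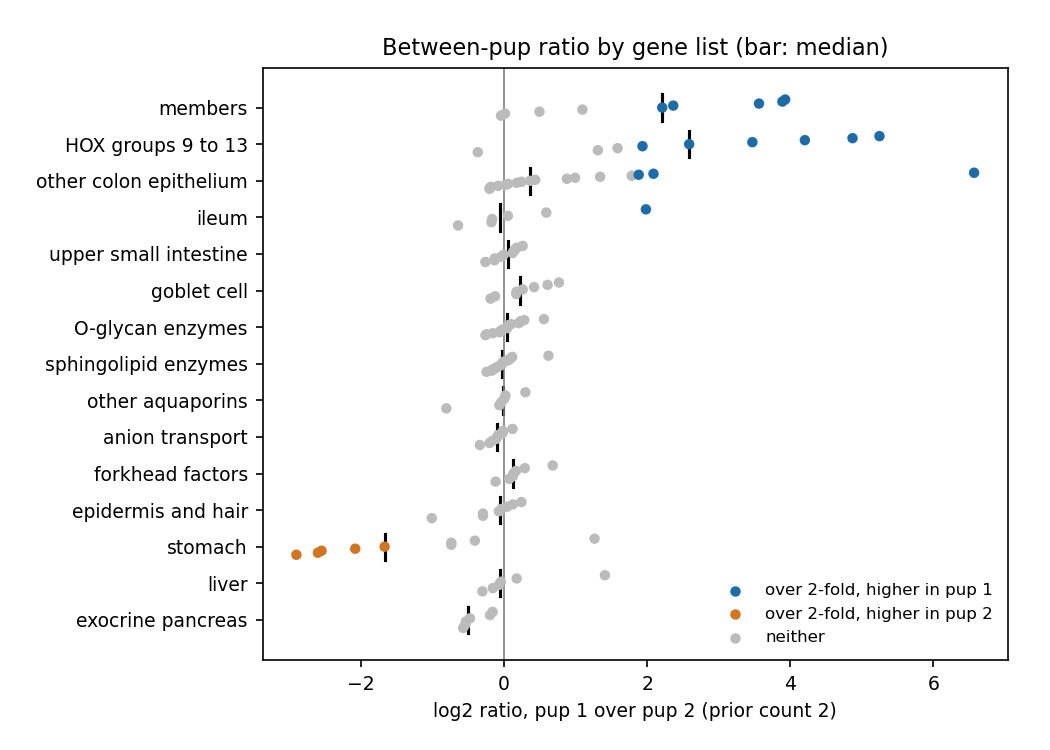
Log2 ratio of pup 1 over pup 2 (prior count of 2) for each gene with a summed count of 10 or more, by list, with the list median as a black bar. Blue points were called higher in pup 1, orange points higher in pup 2 and grey points neither. Blue points occur in the members (5), HOX groups 9 to 13 (6), other colon epithelium (3) and ileum (1), and orange points in the stomach list (5).

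The protein-coding genes that flank the members on the chromosome were mostly not called. Of 17 such neighbours, 11 could be called and were not, and 5 had too few reads. The 1 called higher in pup 1, Foxd2 beside Foxd2os, is itself a member. Over all 19088 genes 0.796% were called, so having none called among the 11 is near that share. Hook2 and Asna1 on either side of Best2 had ratios of 0.944 (0.904 to 0.984) and 1.13 (1.07 to 1.19), and Mlkl and Wdr59 beside Fa2h 1.20 (1.05 to 1.37) and 0.975 (0.780 to 1.22). Krtap27-1 and Foxe3, the right-hand neighbours of Krtap26-1 and of Foxd2os, had no read.

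Transcript models add detail for 4 members. Prr15l was divided nearly evenly between Prr15l-201 (45.63% and 47.08% in pups 1 and 2) and Prr15l-202 (46.25% and 46.45%). Aqp8-201 took 66.28% and 60.56% of Aqp8, and Foxd2os-202 86.96% and 75.41% of Foxd2os, the latter value from 2 reads. All reads of Fa2h were given to Fa2h-201, the coding transcript, but by the posterior mean estimate its share was 80.58% in pup 1 and 47.49% in pup 2, so the division among the 4 Fa2h transcripts is uncertain at 26 reads.

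Genes with the levels most like the called members were found by distance between log2(TPM + 0.1) values over the 2 libraries, which 2 points can only describe. Nearest to Best2 were Gvin1 (0.49 and 0.00 TPM) and Ttll9 (0.51 and 0.00 TPM), at distances of 0.00 and 0.048. Nearest to Foxd2 were Hist1h4f (distance 0.12) and Gvin1 (0.24). Fa2h had Csn1s1 (0.36, counts of 90 and 19) and Fcmr (0.38, counts of 23 and 5). Krtap26-1 had Hist1h2bp (0.41, counts of 20 and 5) and Fcmr (0.42). Foxd2os had Spata48 (0.97, counts of 16 and 3) and Slc7a10 (1.13, counts of 14 and 5). Only protein-coding genes outside the lists, with a symbol that is not a predicted-gene name, were compared. Among these, none lay within 0.25 of Fa2h, Krtap26-1 or Foxd2os.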

How the data were processed

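For each of the 2 libraries the files hold a table of genes and a table of transcripts, deposited on assembly mm10 with GENCODE annotation M4, per the text file that came with them. Expected counts are the authors' estimates of reads per feature and need not be whole. TPM values are the authors' deposited abundances per length over all features, spike-ins included. Transcript shares in percent are as deposited. Aligner, quantifier and strand use: not given in the sources used here. Symbols and positions came from GENCODE M21 (GRCm38), matched for 42462 of 43346 genes (98.0%), and other features were left out. Counts over genes totalled 44568098 in pup 1 and 34797495 in pup 2.

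Counts were rounded and scaled by TMM (edgeR 4.0.16, R 4.3.3), and ratios given exact Clopper-Pearson 95% intervals (SciPy 1.17.1). Alternatives were total count scaling, DESeq2 1.42.0 size factors, posterior mean counts, TPM ratios and other thresholds. Counts relative to HOX genes are conditional odds ratios with exact intervals.

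The 19 lists, the members among them, were chosen with earlier results of these data known. All 9 members were named, with the 3 highest and up to 3 called genes of each other list, and the 2 nearest genes to each called member. Hoxc9, Hoxb9, C1galt1, Atp4a, Gal3st1, Ugt8a, Alb, flanking genes, the Krtap family and genes at or near 0 were added after values were seen. The labels name pup 1 and pup 2 of 1 pregnancy, read here as littermates, and give both the same donor entry, so spread covers these animals only. Some results that the naming rule covers are not reported here.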

Additional observations from a re-analysis of the deposited data

How the results depend on the processing

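The count of 5 members over 2-fold apart held under total count scaling, DESeq2 size factors and posterior mean counts, with the same 5 genes called. It was 3 at a summed count of 50 or more, a setting that removes Best2 and Foxd2. Under TPM ratios B3gnt6 joined them, and beyond 3-fold Krtap26-1 left. The other colon epithelium count of 3 was 5 with TPM ratios, which carry no interval, and 6 when the interval had to pass 1.5-fold. The count over all genes, 152, was 81 with posterior mean counts (80 of them shared), 1129 with TPM ratios, 64 at a summed count of 50 or more, 283 beyond 1.5-fold and 85 beyond 3-fold, and the causes were not tested beyond what each threshold removes or adds by construction. Members at 1 TPM or more ranged from 3 without replicate 1 to 6 without replicate 2. Members below 1 relative to the HOX sum numbered 3, 6 with groups 10 to 13, and 2 against the other colon epithelium sum, where Aqp8 turned from 0.200 to 1.28. Leaving Hoxa10 out of the sum, an alternative chosen after seeing the data, left that count at 3. Member ratios were also taken under total count scaling, DESeq2 size factors, posterior mean counts and TPM. Of these values, counted per member and setting, 27 stayed inside the member's main interval. The 1 outside was that of Mettl7b at 0.928 with TPM. Best2 and Foxd2, with no read in pup 2, have no ratio and were not checked this way. No paired analysis was possible because both libraries belong to 1 group. Depth limits B3gnt6, Best2 and Foxd2, with 18, 35 and 36 reads in all.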
